A study of Mus musculus with 8 samples.

Results

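The macrophage and MHC class II genes are a list of 41 genes that mark tissue macrophages in general, resident macrophages, monocyte-derived macrophages and the presentation of antigen on MHC class II, and their transcripts were followed in RNA from cultured cardiomyocytes. The members were chosen by name, and every row of the gene table that carried 1 of the names was taken. Of the 41 genes, 30 had an entry among the 11367 genes of the table, in 31 rows because Itgam had 2 gene models. The other 11 genes, Aif1, Cd163, Fcgr2b, H2-DMb1, Ptprc, Coro1a, Ccr2, Cx3cr1, Lyve1, F13a1 and Fcgr1, were not analysed here at the gene level.

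RNA sequencing covered 8 libraries of ventricular cardiomyocytes isolated from adult C57BL/6 mice. Of these, 4 (control 1 to 4) came from cells kept for 24 h in plain M199, a defined culture medium, and 4 (conditioned 1 to 4) from cells kept for 24 h in M199 in which CCR2+ cardiac macrophages had been cultured for 24 h. The macrophages were sorted by flow cytometry, as CD45+ cells with high Ly6C, high MHC-II, CD11b, CD64 and GFP, from hearts of Ccr2gfp/+ mice 4 weeks after transverse aortic constriction (TAC), a surgical pressure overload of the left ventricle. In that line GFP replaces 1 copy of Ccr2, the receptor for the chemokine CCL2. Only the medium, and not the macrophages, was added to the cardiomyocytes, and both media contained the contraction inhibitor Blebbistatin, CD lipid and ITS (insulin, transferrin and selenium). In the methods, fetal bovine serum is named for the medium of the sorted macrophages but not for that of the controls, so serum could be a second difference between the groups. Neither the methods nor the labels say whether replicates came from separate mice, and the p values therefore reflect library-to-library spread that could be technical.

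The healthy heart holds resident macrophages between its cardiomyocytes, which depend on the growth factor receptor CSF1R, clear debris and seldom exchange with blood monocytes. After injury or overload, monocytes that carry CCR2 enter the tissue and become macrophages with high MHC class II. On class II, α and β chains pair in the endoplasmic reticulum with the invariant chain CD74, which is cut away by cathepsin S in the endosome so that H2-DM can load a peptide for CD4+ T cells. Lysozyme, C1q and class II are made chiefly by myeloid and other antigen-presenting cells and are not typical products of cardiomyocytes.

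The class II genes also share promoter elements, which is why 2 of their promoters are shown, with that of cathepsin S, a protease of the same pathway. The sequences are RefSeq promoter windows of GRCm38.p6, from 250 bases before to 50 bases after the gene start, and 31 of the 41 genes had a window. The Y box, CTGATTGG, bound by the NF-Y complex, is in capitals in H2-Aa (chr17:34287774-34288073, minus strand) and H2-Eb1 (chr17:34305617-34305916, plus strand). In Ctss (chr3:95526536-95526835, plus strand) the capitals mark GAGGAA, the core bound by PU.1, on either strand.
H2-Aa: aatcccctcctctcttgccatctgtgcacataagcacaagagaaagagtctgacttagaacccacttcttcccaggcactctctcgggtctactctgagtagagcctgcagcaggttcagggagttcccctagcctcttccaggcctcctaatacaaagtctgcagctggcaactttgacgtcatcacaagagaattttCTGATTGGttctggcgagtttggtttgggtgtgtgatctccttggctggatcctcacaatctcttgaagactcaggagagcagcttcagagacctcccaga
H2-Eb1: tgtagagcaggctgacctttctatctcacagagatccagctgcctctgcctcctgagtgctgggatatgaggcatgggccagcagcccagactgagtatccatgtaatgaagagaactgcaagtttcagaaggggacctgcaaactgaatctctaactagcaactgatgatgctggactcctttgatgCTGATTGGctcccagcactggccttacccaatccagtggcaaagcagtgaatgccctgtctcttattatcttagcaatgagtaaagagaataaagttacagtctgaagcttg
Ctss: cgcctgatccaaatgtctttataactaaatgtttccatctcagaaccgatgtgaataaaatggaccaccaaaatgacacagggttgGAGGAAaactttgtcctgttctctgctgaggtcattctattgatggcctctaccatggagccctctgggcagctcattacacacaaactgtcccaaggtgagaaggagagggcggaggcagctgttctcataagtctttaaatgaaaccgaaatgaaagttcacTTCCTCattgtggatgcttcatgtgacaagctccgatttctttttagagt

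The Y box starts 51 bases before the gene start in H2-Aa and 62 bases before it in H2-Eb1. Both strands were searched, and 4.10% of all 32851 promoter windows hold these 8 letters. Among the 31 members with a window, H2-Aa and H2-Eb1 were the 2 genes with a match. Of the 5 windows of class II genes 2 held the Y box, and these are the 2 shown. Cd74 and H2-Ab1 had no window and were not searched. The core GAGGAA was found in 20 of the 38 windows of the members, or 52.6%, and in 28.3% of all windows. PU.1 is itself the product of a member, Spi1. The search for each motif was separate, the matches shown do not overlap, and a match of letters is a description and not a binding site.

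Expression is given as FPKM, fragments per kilobase of transcript scaled to the library's mapped fragments, so levels can be set side by side between genes. Lyz2, which encodes the lysozyme of macrophages, was the most abundant member at 13.4 to 128 FPKM and made up 32.2% to 48.8% of the members' summed FPKM in each library. Only Lyz2, the cathepsin Ctss and the lysosomal glycoprotein Cd68 averaged at least 10 FPKM. Of the 31 rows, 26 stayed under 10 FPKM in every library and 13 under 3 FPKM. The sum over all members was 263, 41.7, 169 and 177 FPKM in control 1 to 4 and 265, 273, 276 and 278 FPKM in conditioned 1 to 4. The groups did not overlap, but control 1 lay close to the conditioned libraries and control 2 far below every other. Of the summed FPKM of all genes, the members took 0.0125% in control 2, 0.0509% to 0.0838% in the other controls and 0.0717% to 0.0860% in conditioned medium. Mitochondrially encoded genes took 63.0% of the FPKM of conditioned 4 and 30.2% to 40.7% in the other libraries. These sums and shares were not rescaled to the remaining genes, so they set conditioned 4 low beside the others.

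**Figure D1:**
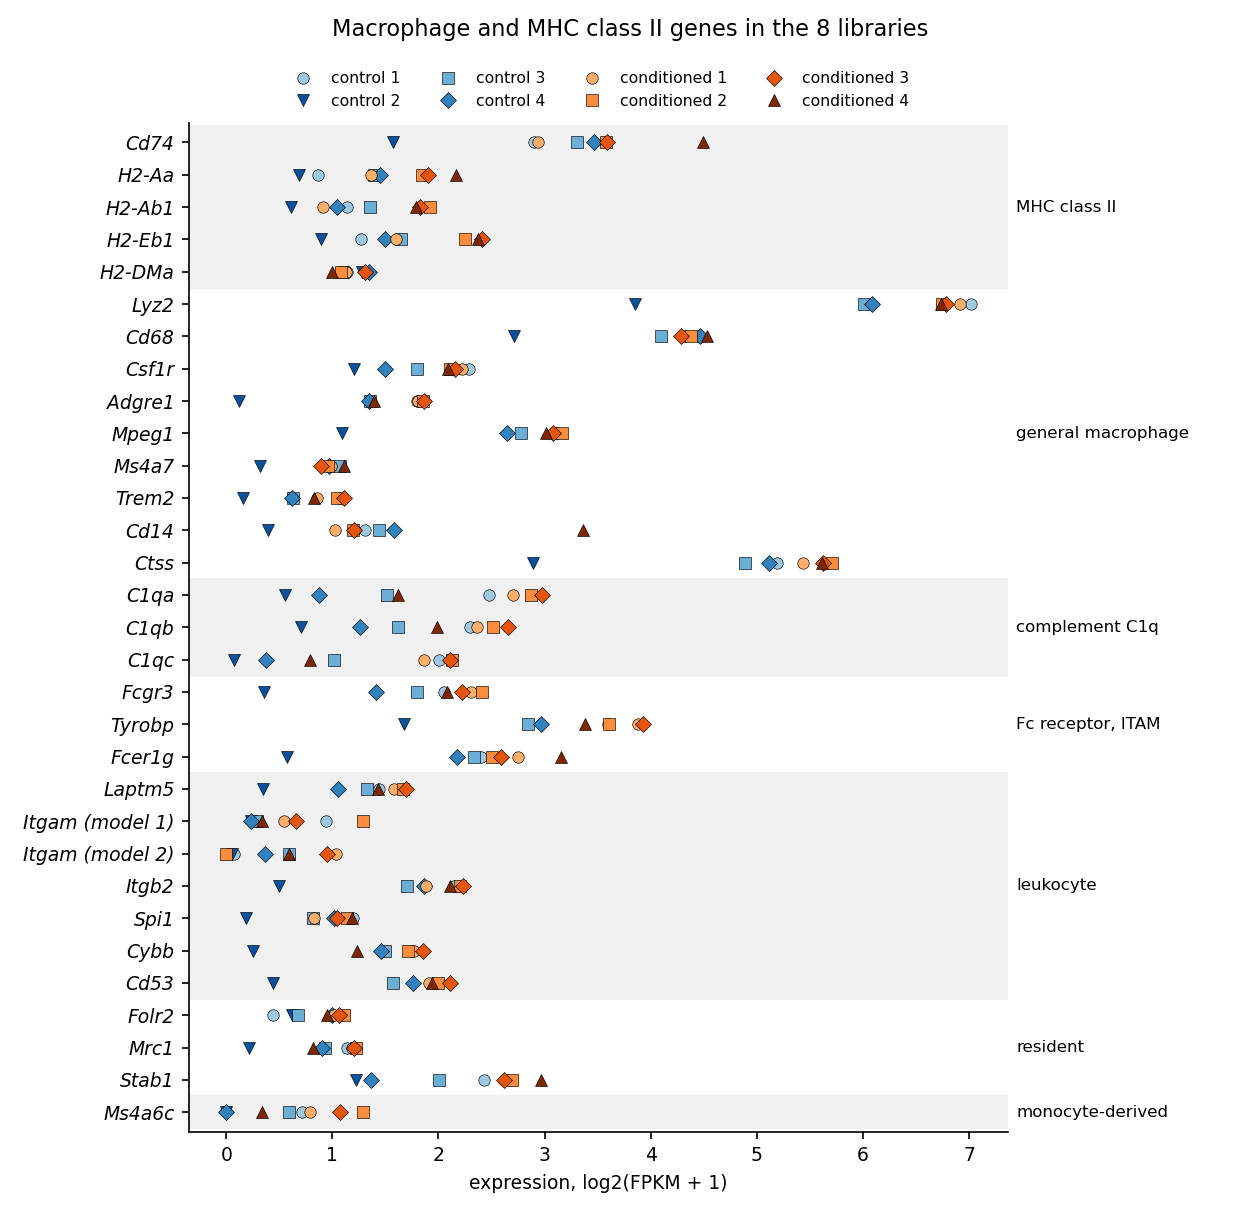
Expression of each macrophage and MHC class II gene as log2(FPKM + 1), with 1 symbol for each of the 8 libraries, blue for control and orange to brown for conditioned medium, and the rows banded by role. Control 2 (dark blue triangle) lies lowest in 28 of 31 rows, once tied, while control 1 reaches at least the highest conditioned library in 3 rows.

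Control 2 was the lowest library in 28 of the 31 rows, once tied, while it was the lowest in 12.9% of all 11367 genes. The exceptions were H2-DMa, Folr2 and the second model of Itgam. In 17 rows every other library was more than 3 times as high as control 2. Control 1, by contrast, reached at least the lowest conditioned library in 23 rows, control 3 in 12 and control 4 in 12. The members were spread more widely among the controls, with a median SD of 0.56 against 0.19 on the log2(FPKM + 1) scale in conditioned medium, and 24 of 31 rows had the larger SD in control medium. Over all genes the medians were 0.22 and 0.26, and 43.0% had the larger SD in control medium. In bulk RNA, fewer macrophages and less RNA per macrophage cannot be told apart.

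Whether the members differed between conditioned and control medium was tested with limma on log2(FPKM + 1) over all 11367 genes, calling a gene at a Benjamini-Hochberg adjusted p under 0.05. No member rose and none fell, where 0.554% of all genes rose and 0% fell. The lowest adjusted p among the members was 0.197, for Stab1. At an unadjusted p under 0.05, 13 of 31 rows, or 41.9%, were higher and 0 lower, against 8.78% of all genes higher and 0.845% lower. A log2 fold change above 0 was seen in 30 of 31 rows, H2-DMa being the exception, against 53.9% of all genes. Ms4a6c and both Itgam rows averaged under 0.5 FPKM in control medium and over it in conditioned medium. They met the 0.5 FPKM minimum of the table only through conditioned medium, so their direction was set by it. Ms4a6c was also among the 13 rows with an unadjusted p under 0.05. The median log2 fold change was 0.55 over the members and 0.02 over all genes.

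These differences leaned on control 2. Without that library 19 of the 31 log2 fold changes shrank by more than 1.5 times or turned, the median over the members was 0.32, 8 rows were higher at an unadjusted p under 0.05 against 4.48% of all genes, and the lowest adjusted p from limma was 0.668. Without control 1 instead, Stab1 rose (log2 fold change 1.19, adjusted p = 0.0367 with limma), as did 0.968% of all genes. With limma weighting each library by its fit, 16 members rose, against 7.76% of all genes. The 16 include Ms4a6c, which met the 0.5 FPKM minimum only through conditioned medium. In that fit conditioned 4 had a weight of 0.0826 and conditioned 2 one of 5.52.

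**Figure D2:**
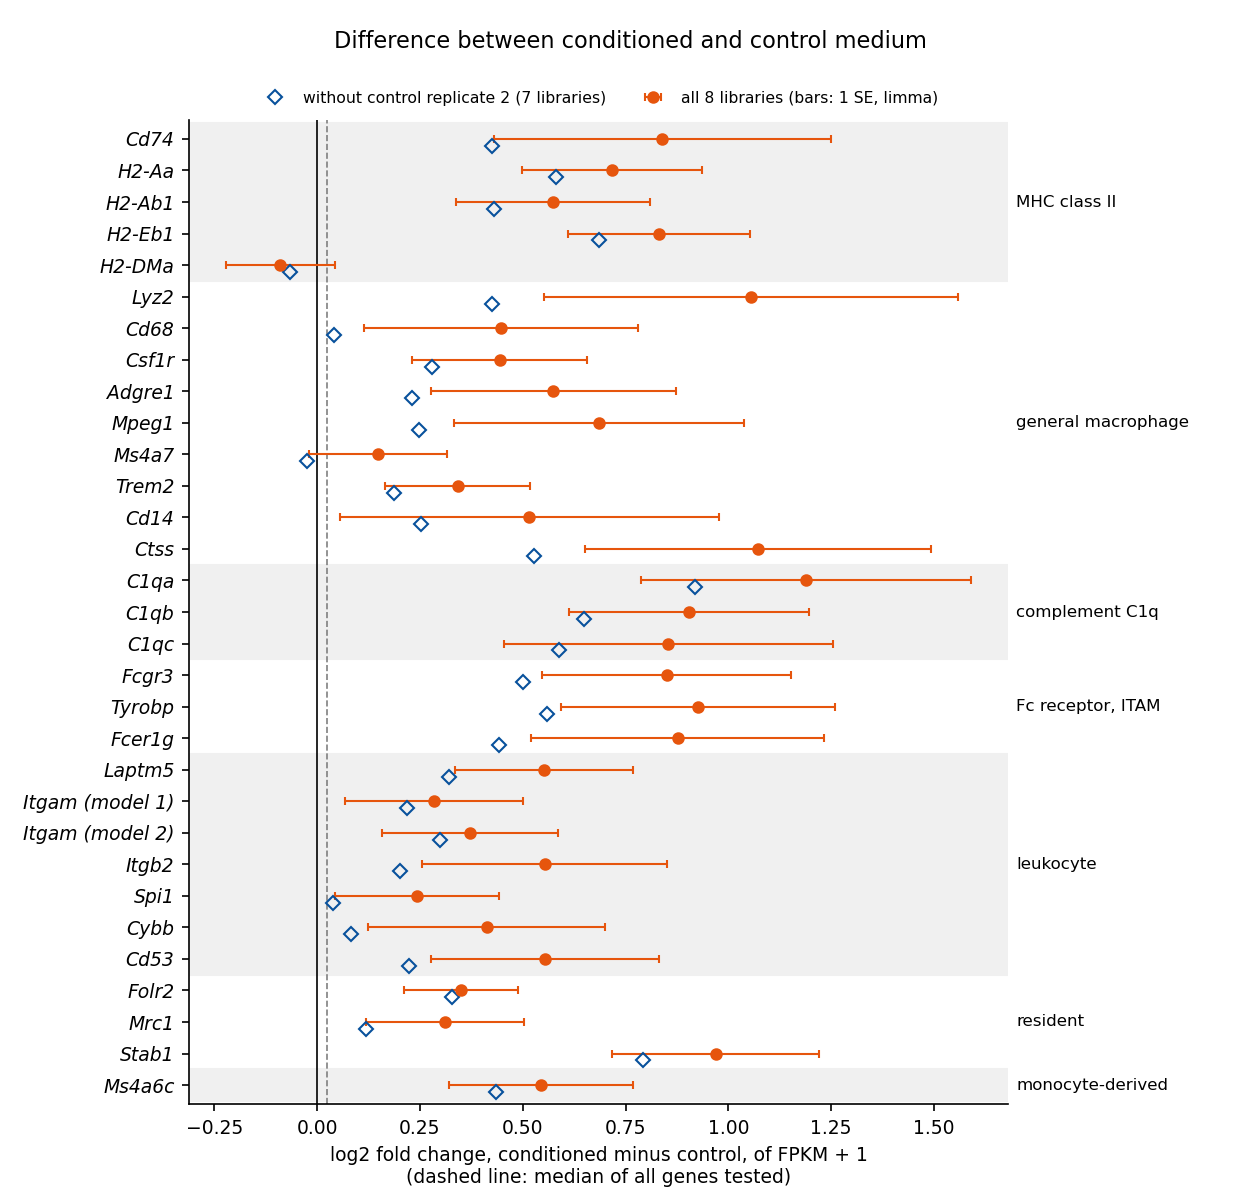
Log2 fold change of FPKM + 1, conditioned minus control medium, for each member with all 8 libraries (filled circles, bars 1 SE from limma) and without control 2 (open diamonds). The diamond lies left of the circle in every row but that of H2-DMa, the 1 gene whose circle is below 0.

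The 5 class II genes were measured at low levels, and none passed the adjusted threshold. Cd74, the invariant chain, was at 6.44, 1.96, 8.89 and 10.1 FPKM in control 1 to 4 and 6.66, 10.9, 11.02 and 21.5 FPKM in conditioned 1 to 4. The groups overlapped, with conditioned 1 below control 3 and 4 and conditioned 4 well above conditioned 2 and 3. Between the media the log2 fold change was 0.84 ± 0.41 (SE, n = 4 and 4; adjusted p = 0.555 with limma), and 0.43 without control 2.

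H2-Aa (chr17:34282744-34287827), the α chain of I-A, was at 0.826, 0.613, 1.63 and 1.73 FPKM in control medium and 1.58, 2.58, 2.73 and 3.49 FPKM in conditioned medium. Conditioned 1 lay below control 3 and 4, and the other conditioned libraries were above every control. H2-Aa had a log2 fold change of 0.72 ± 0.22 (SE, n = 4 and 4; adjusted p = 0.312 with limma). H2-Ab1 (chr17:34263209-34269418), its β chain, was at 1.20, 0.526, 1.55 and 1.06 FPKM in control medium and 0.881, 2.79, 2.54 and 2.44 FPKM in conditioned medium. Conditioned 1 again lay among the controls (log2 fold change 0.57 ± 0.23, SE, n = 4 and 4; adjusted p = 0.472 with limma).

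H2-Eb1 (chr17:34305877-34316199), the β chain of I-E, was at 1.41, 0.854, 2.14 and 1.83 FPKM in control medium and 2.04, 3.74, 4.31 and 4.18 FPKM in conditioned medium. Conditioned 1 lay just below control 3 and the other conditioned libraries were above every control. Its log2 fold change of 0.83 ± 0.22 (SE, n = 4 and 4) had an adjusted p of 0.215 with limma. H2-DMa (chr17:34135182-34139101), a chain of the peptide loader, was at 1.19, 1.44, 1.15 and 1.54 FPKM in control medium and 1.19, 1.11, 1.48 and 0.994 FPKM in conditioned medium. It did not share the order of the other class II genes: control 4 was its highest library and conditioned 4 its lowest (log2 fold change -0.09 ± 0.13, SE, n = 4 and 4; adjusted p = 0.850 with limma). Across the 8 libraries its correlation with the mean of the other members was -0.46, the only negative one, as a description over libraries that share their cells and depth with all members.

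A further 24 genes of antigen presentation were listed, of which 15 had a row and none rose or fell. At an unadjusted p under 0.05, 4 were higher and 0 lower, against 8.78% and 0.845% of all genes. The median log2 fold change of the 15 was 0.15. Tap1, a subunit of the peptide transporter of class I, was at 0.216 to 0.835 FPKM in control medium and 1.07 to 2.03 FPKM in conditioned medium, without overlap (log2 fold change 0.71 ± 0.17, SE, n = 4 and 4; adjusted p = 0.137 with limma). Its partner Tap2 had a log2 fold change of 0.64, and Nfya, a subunit of the Y box factor NF-Y, one of 0.58. The most abundant, the aspartic protease Ctsd, was at 370 to 466 FPKM in control medium and 269 to 418 FPKM in conditioned medium.

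The cathepsin that cuts the invariant chain, Ctss (chr3:95526786-95556403), was at 35.6, 6.41, 28.7 and 33.5 FPKM in control 1 to 4 and 42.1, 51.2, 48.4 and 47.9 FPKM in conditioned 1 to 4. All conditioned libraries were above all controls. The log2 fold change was 1.07 ± 0.42 (SE, n = 4 and 4; adjusted p = 0.456 with limma), and 0.53 without control 2. Ctss, Fcgr3, Fcer1g and Stab1 were the 4 members whose groups did not overlap in this direction, against 5.08% of all genes, and no member was lower without overlap, against 1.46% of all genes. Ctss had 2 transcripts in the table, and Ctss-202 made up 91.6%, 87.5%, 52.4% and 34.9% of their sum in control 1 to 4 and 50.4%, 39.6%, 36.7% and 90.3% in conditioned 1 to 4. The split thus ran from mostly Ctss-202 to mostly Ctss-201 within each group.

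Among the general macrophage markers, Lyz2 (chr10:117277331-117282321) was at 128, 13.4, 63.5 and 66.7 FPKM in control medium and 119, 106, 109 and 106 FPKM in conditioned medium. Control 1 was its highest library and the conditioned libraries lay close together. Its log2 fold change was 1.06 ± 0.50 (SE, n = 4 and 4; adjusted p = 0.546 with limma), and 0.43 without control 2. The neighbouring copy Lyz1 was at most 1.497 FPKM in any library, and how the counting split reads between the copies is not stated.

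Csf1r, the receptor for the growth factors CSF1 and IL-34, was at 3.87, 1.30, 2.49 and 1.83 FPKM in control medium and 3.65, 3.30, 3.44 and 3.25 FPKM in conditioned medium. As for Lyz2, control 1 was highest and the conditioned libraries lay within a narrow range (log2 fold change 0.44 ± 0.21, SE, n = 4 and 4; adjusted p = 0.551 with limma). Cd68, the lysosomal glycoprotein used to stain macrophages, was at 21.0, 5.56, 16.1 and 21.0 FPKM in control medium and 19.1, 19.8, 18.5 and 22.1 FPKM in conditioned medium. Apart from control 2 its libraries barely differed, and the log2 fold change of 0.45 became 0.04 without that library.

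Cd14, the co-receptor for lipopolysaccharide, was at 1.48, 0.314, 1.72 and 1.996 FPKM in control medium and 1.04, 1.29, 1.31 and 9.31 FPKM in conditioned medium. Conditioned 4 alone stood high, and the other conditioned libraries lay below control 1, 3 and 4. Its log2 fold change of 0.52 turned to -0.04 without conditioned 4. Adgre1, an adhesion receptor that marks mouse macrophages, was at 1.63 FPKM in conditioned 4 against 2.50 to 2.65 FPKM in conditioned 1 to 3. In control medium it was at 0.0887 to 2.48 FPKM. Its value in conditioned 4 was not corrected for the large mitochondrial share of that library's FPKM. The pore-forming protein gene Mpeg1 (log2 fold change 0.69), the lipid receptor gene Trem2 (0.34) and Ms4a7 (0.15), a tetraspan membrane protein gene, had overlapping groups. Over the 9 general markers the median log2 fold change was 0.52, and 0.25 without control 2.

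The 3 chains of complement C1q, which binds immune complexes and dying cells, lie side by side on chromosome 4, C1qb at chr4:136880129-136886187, C1qc at chr4:136889804-136893065 and C1qa at chr4:136895917-136898803. C1qa was at 4.58, 0.463, 1.86 and 0.839 FPKM in control medium and 5.504, 6.34, 6.89 and 2.07 FPKM in conditioned medium. Conditioned 1 to 3 were above every control, while conditioned 4 lay below control 1. Its log2 fold change, 1.19 ± 0.40 (SE, n = 4 and 4; adjusted p = 0.373 with limma), was the largest of the members.

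C1qb was at 3.93, 0.634, 2.07 and 1.40 FPKM in control medium and 4.15, 4.70, 5.29 and 2.95 FPKM in conditioned medium (log2 fold change 0.90; adjusted p = 0.350 with limma). C1qc was at 3.02, 0.0501, 1.02 and 0.295 FPKM in control medium and 2.63, 3.37, 3.32 and 0.723 FPKM in conditioned medium (log2 fold change 0.85; adjusted p = 0.542 with limma). In all 3 chains control 2 was lowest, control 4 next lowest among the controls, and conditioned 4 the lowest of its group.

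The Fc receptor Fcgr3, which takes up antibody-coated particles, was at 3.14, 0.280, 2.47 and 1.66 FPKM in control medium and 3.95, 4.30, 3.66 and 3.23 FPKM in conditioned medium. The groups did not overlap, by a narrow margin between control 1 and conditioned 4 (log2 fold change 0.85; adjusted p = 0.411 with limma). Fcer1g, the γ chain that signals for it, was at 4.28, 0.484, 4.05 and 3.52 FPKM in control medium and 5.72, 4.67, 5.01 and 7.88 FPKM in conditioned medium, also without overlap (log2 fold change 0.88; adjusted p = 0.468 with limma).

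Tyrobp, the DAP12 adaptor of Trem2, was at 11.1, 2.19, 6.20 and 6.83 FPKM in control medium and 13.7, 11.2, 14.2 and 9.41 FPKM in conditioned medium. Control 1 overlapped the conditioned libraries (log2 fold change 0.93; adjusted p = 0.420 with limma). All 3 genes were higher at an unadjusted p under 0.05 with limma, as were 8.78% of all genes. Without control 2 the log2 fold changes were 0.50, 0.44 and 0.56 in the order Fcgr3, Fcer1g and Tyrobp. In that fit Fcer1g had an unadjusted p of 0.0566 with limma.

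The leukocyte genes had a median log2 fold change of 0.41 over 7 rows, or 0.22 without control 2. Of these rows 1, Laptm5, was higher at an unadjusted p under 0.05 with limma, against 8.78% of all genes. Laptm5, a lysosomal protein of blood cells, was at 1.71, 0.270, 1.51 and 1.07 FPKM in control medium and 1.98, 2.18, 2.24 and 1.69 FPKM in conditioned medium (log2 fold change 0.55; adjusted p = 0.458 with limma). It tracked the other members most closely, with a correlation of 0.98 with their mean over the 8 libraries and 0.92 over the 7 without control 2, as a description. Log2 fold changes were 0.55 for the integrin β2 gene Itgb2, 0.55 for the tetraspanin gene Cd53, 0.41 for Cybb, a subunit of the phagocyte oxidase, and 0.24 for Spi1. The groups of all 4 overlapped. Without control 2 these values were 0.20, 0.22, 0.08 and 0.04, in the same order.

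The integrin αM gene Itgam, which encodes CD11b, had 2 overlapping gene models on the same strand (chr7:128062640-128118491 and chr7:128062683-128128160), between which reads could be split. The first was at 0.924, 0.173, 0.220 and 0.175 FPKM in control medium and 0.459, 1.45, 0.574 and 0.266 FPKM in conditioned medium. The second was listed at 0 in conditioned 2, where the first was highest. Added together they gave 0.980, 0.209, 0.723 and 0.463 FPKM in control medium and 1.505, 1.448, 1.504 and 0.769 FPKM in conditioned medium, so that control 1 lay above conditioned 4 and below the rest.

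Markers of resident macrophages were measured for Folr2, Mrc1 and Stab1. Stab1 (chr14:31139013-31168641), a scavenger receptor, was at 4.38, 1.34, 3.01 and 1.57 FPKM in control medium and 5.14, 5.46, 5.14 and 6.81 FPKM in conditioned medium. The groups did not overlap, and the log2 fold change of 0.97 ± 0.25 (SE, n = 4 and 4) had the lowest adjusted p of the members. Endothelial cells of sinusoids also express Stab1, and its gene overlaps Nt5dc2 on the other strand. Csf1r likewise overlaps Hmgxb3, and H2-Eb1 the antisense gene Gm20513. The library kit marks strand, but whether the counting used it is not stated, so reads of such pairs may be mixed.

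Folr2, the folate receptor β, was at 0.359, 0.536, 0.602 and 0.9997 FPKM in control medium and 1.03, 1.16, 1.09 and 0.931 FPKM in conditioned medium. Its lowest library was control 1 rather than control 2, and control 4 lay within the conditioned range (log2 fold change 0.35; adjusted p = 0.458 with limma). Mrc1, the mannose receptor CD206, was at 1.20, 0.164, 0.908 and 0.868 FPKM in control medium and 1.27, 1.33, 1.31 and 0.767 FPKM in conditioned medium. Conditioned 4 lay below 3 of the controls (log2 fold change 0.31, adjusted p = 0.661 with limma). This order is by FPKM and was not corrected for the large mitochondrial share of conditioned 4.

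Of the genes that mark monocyte-derived macrophages, Ccr2 and Cx3cr1 were not analysed here, and Ms4a6c, a membrane protein of the same family as Ms4a7, was the 1 measured. It was listed at 0.645, 0, 0.510 and 0 FPKM in control 1 to 4 and at 0.732, 1.44, 1.10 and 0.265 FPKM in conditioned 1 to 4. The groups overlapped, and the unadjusted p of 0.0322 became an adjusted p of 0.473 with limma. Its mean was 0.289 FPKM in control medium and 0.884 FPKM in conditioned medium. It met the table's minimum of 0.5 FPKM only through conditioned medium, so this p is biased toward a difference and supports no rise. F13a1, counted with the resident genes, was present in the transcript table alone, where F13a1-201 was at 0.882, 0.0485, 0.345 and 0.124 FPKM in control medium and 0.584, 0.596, 0.907 and 0.548 FPKM in conditioned medium. Control 1 was again among the conditioned libraries.

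The make-up of the macrophage signal was described by setting each gene against Lyz2 in the same library. Csf1r was 3.06%, 3.10%, 3.15% and 3.07% of Lyz2 in conditioned 1 to 4, and 3.01%, 9.68%, 3.92% and 2.74% in control 1 to 4. Cd74 was 5.58%, 10.3%, 10.1% and 20.3% of Lyz2 in conditioned medium and 5.02%, 14.6%, 14.0% and 15.1% in control medium. With 1 added to each FPKM, the log2 ratio of Lyz2 to Csf1r was nearly constant in conditioned medium (SD 0.03, n = 4). It varied among the controls (SD 0.95, n = 4), mostly through control 2. Without control 2 the SD of the controls was 0.27 (n = 3), from FPKM with nothing added.

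**Figure D3:**
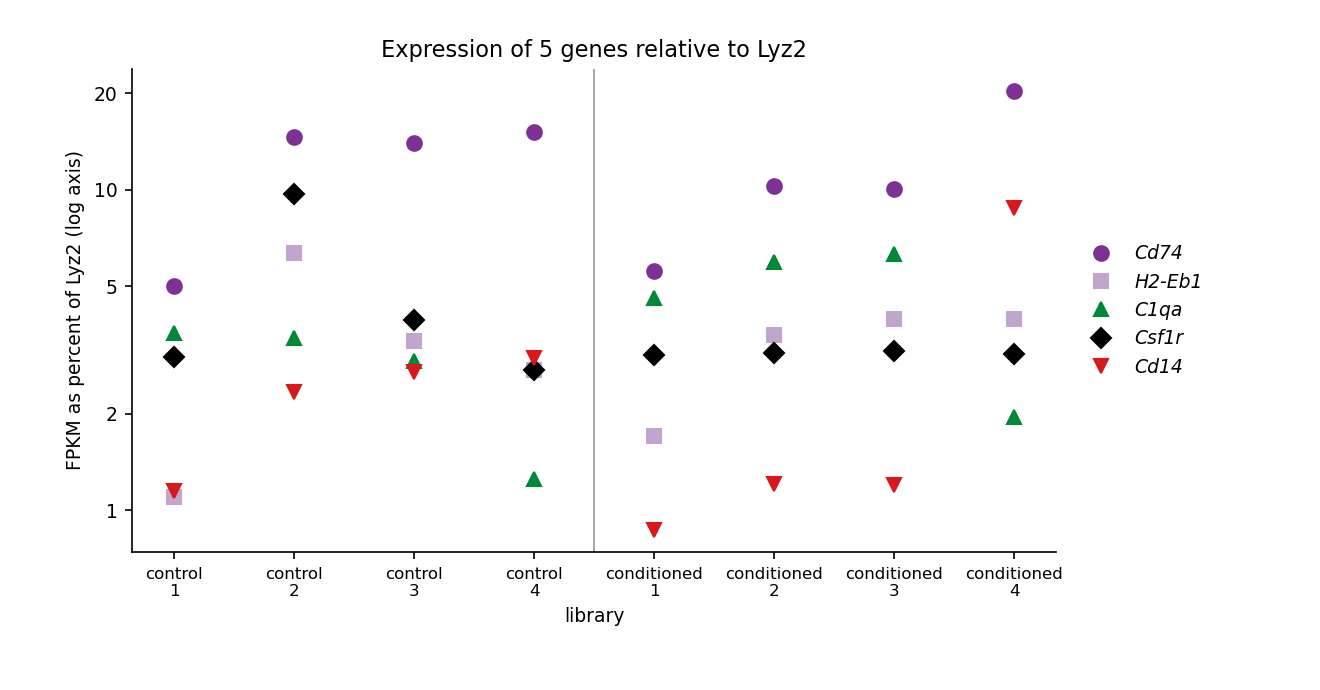
FPKM of Cd74, H2-Eb1, C1qa, Csf1r and Cd14 as percent of Lyz2 in each of the 8 libraries, on a log axis, with a vertical line between control and conditioned medium. Csf1r lies at 3.06% to 3.15% in all conditioned libraries, while Cd14 reaches 8.81% in conditioned 4.

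Between the media, the log2 ratio of Cd74 to Lyz2 differed by -0.22 (exact permutation test, two-sided p = 0.714), that of Cd74 to Csf1r by 0.40 (p = 0.486) and that of Lyz2 to Csf1r by 0.61 (p = 0.229), each with n = 4 and 4. The last of these differences was 0.15 without control 2. Adjusted over these 3 ratios the p values were 0.714, 0.714 and 0.686, and the smallest p that 4 against 4 libraries allow is 0.0286. No difference in the balance of class II and general markers was detected beyond the spread between libraries.

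Within each group, replicate 1 had the least H2-Aa, H2-Ab1, H2-Eb1 and Cd74 relative to Lyz2. H2-DMa did not share this, since in conditioned medium it was lowest in replicate 4, at 0.941% of Lyz2 against 0.995% in replicate 1. H2-Eb1 was 1.10% of Lyz2 in control 1 and 1.71% in conditioned 1, against 2.74% to 6.36% in the other libraries. H2-Aa was 0.643% and 1.32% in the same libraries, against 2.42% to 4.56% in the others. C1qa relative to Lyz2 was lowest in replicate 4 of each group, at 1.26% in control 4 and 1.96% in conditioned 4, against 2.93% to 6.31% elsewhere. The labels do not say whether a shared number stands for a shared preparation.

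By likeness to the members, the 8 other genes with the highest correlation with the members' mean over the 8 libraries were Frs3 (r = 0.98), Wfdc17 (0.97), Pf4 (0.97), Apobec1 (0.97), Dcbld2 (0.97), Ddias (0.96), Gm13889 (0.96) and Cd200r1 (0.96). The libraries share depth and composition across genes, and without control 2 the same correlations were between 0.74 and 0.95. Of 64 further macrophage genes listed, 43 had a row. None rose or fell, and 21 were higher and 0 lower at an unadjusted p under 0.05, against 8.78% and 0.845% of all genes. Ly6c2, among the 21, and Ptpn6 and Tlr7 met the table's minimum of 0.5 FPKM only through conditioned medium. Their direction was therefore set by it. The median log2 fold change of the list was 0.40. The most abundant was the lectin gene Lgals3, at 25.9 to 50.6 FPKM in control medium and 43.7 to 65.1 FPKM in conditioned medium.

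The chemokine gene Ccl6 was at 4.02, 0.334, 3.70 and 1.80 FPKM in control medium and 9.62, 15.97, 15.6 and 5.09 FPKM in conditioned medium, without overlap (log2 fold change 1.92; adjusted p = 0.107 with limma). Another chemokine gene, Ccl9, had a log2 fold change of 1.08 and the actin-bundling gene Lcp1 one of 0.59. Pf4, which was both on that list and among the most alike genes, was at 1.13 to 9.94 FPKM in control medium and 13.4 to 17.9 FPKM in conditioned medium (log2 fold change 1.45; adjusted p = 0.244 with limma).

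Of 12 listed ligands that attract or feed macrophages, 9 had a row, and 2 rose, as did 0.554% of all genes. Ccl2, the ligand of CCR2, was at 27.2, 27.8, 38.2 and 31.6 FPKM in control medium and 107, 95.1, 98.7 and 89.1 FPKM in conditioned medium. All conditioned libraries were above all controls, and control 2 did not stand apart (log2 fold change 1.62 ± 0.17, SE, n = 4 and 4; adjusted p = 0.00148 with limma). Ccl7, another ligand of CCR2, was at 13.8 to 23.2 FPKM in control medium and 38.7 to 62.9 FPKM in conditioned medium (log2 fold change 1.54 ± 0.21, SE, n = 4 and 4; adjusted p = 0.00645 with limma). Complement C3 had a log2 fold change of 1.02 with an adjusted p of 0.253. The most abundant ligand, Mif, was at 97.7 to 133 FPKM in control medium and 110 to 128 FPKM in conditioned medium.

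Of 28 measured interferon-stimulated genes 22 rose and none fell, against 0.554% and 0% of all genes, with a median log2 fold change of 1.36. Oas2, Usp18, Ifi44 and Zbp1 averaged under 0.5 FPKM in control medium and over it in conditioned medium. They met the table's minimum only through conditioned medium, so their direction was set by it. All of these but Zbp1 were among the 22. Ifit1, an antiviral RNA-binding protein gene, was at 0.503 to 2.03 FPKM in control medium and 6.04 to 9.94 FPKM in conditioned medium (log2 fold change 2.24 ± 0.23, SE, n = 4 and 4; adjusted p = 0.00148 with limma). Whether that list and the macrophage genes differ was not tested.

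Markers of other heart cells also differed in level between libraries. For scale, 53.9% of all genes had a log2 fold change above 0 and 0.554% rose. At an unadjusted p under 0.05 with limma, 8.78% of all genes were higher and 0.845% lower. All 16 endothelial markers had a log2 fold change above 0, with a median of 0.70 and 12 higher at an unadjusted p under 0.05, but none rose at the adjusted p. Their summed FPKM was 155 to 344 in control medium and 345 to 680 in conditioned medium, lowest in control 4 and highest in conditioned 4. Of 16 fibroblast markers 15 were above 0, with a median of 0.42, and 4 were higher and 0 lower at an unadjusted p under 0.05. The 1 that rose was the collagen-binding proteoglycan gene Dcn (log2 fold change 1.22, adjusted p = 0.0336 with limma). Mfap5 met the 0.5 FPKM minimum only through conditioned medium, so its direction was set by it. Log2 fold changes of the 16 fibroblast markers ran from -0.03 to 1.22. Their sum was 69.8 to 166 FPKM in control medium, lowest in control 2, and 154 to 185 FPKM in conditioned medium. None of these markers was listed at 0 in any library. Of 11 mural cell markers 8 were above 0 and 3 below, with a median of 0.48. At an unadjusted p under 0.05 with limma 3 were higher and 1 lower, and none was called. Their sum was 617 to 782 FPKM in control medium and 272 to 636 FPKM in conditioned medium. Most of this sum was Des, at 436 to 633 FPKM in control medium and 174 to 472 FPKM in conditioned medium. Des and the next most abundant, Acta2, were among the 3 below 0, so the sum says little of the other markers. Of 16 cardiomyocyte markers 15 were below 0, with a median of -0.41, and none fell. Their mean deviation from their own means, in log2(FPKM + 1), was -1.15 in conditioned 4. It was -0.07 to 0.25 in conditioned 1 to 3, within the -0.15 to 0.40 of the controls. The part of all these markers in the differences of the macrophage genes was not tested.

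**Figure D4:**
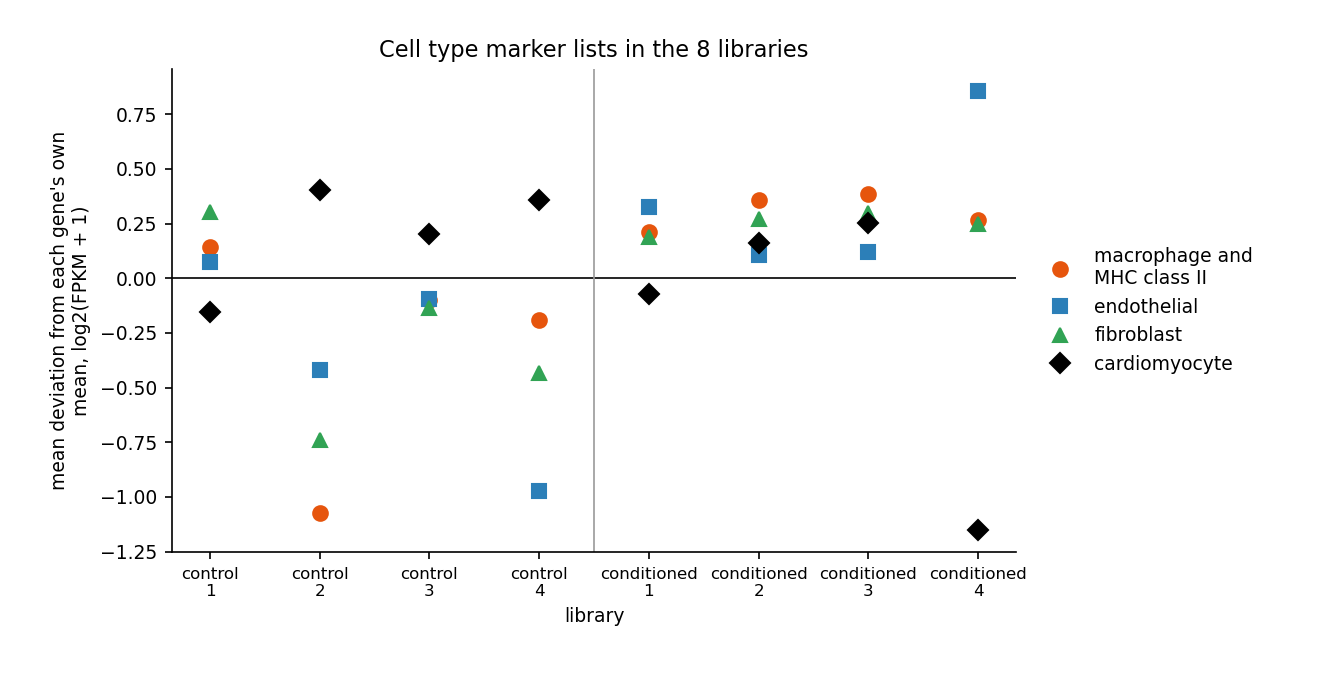
Mean deviation of each list's genes from their own mean over the 8 libraries, in log2(FPKM + 1), for the macrophage and MHC class II genes, the endothelial, fibroblast and cardiomyocyte markers. The macrophage genes and the fibroblast markers are lowest in control 2, at -1.07 and -0.74, the endothelial markers are lowest in control 4 at -0.97, and the cardiomyocyte markers in conditioned 4.

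Lineage-defining genes of other blood cells were scarce in the table: 1 of 10 dendritic cell genes, 1 of 10 neutrophil genes, 0 of 12 T and NK cell genes and 0 of 8 B cell genes had a row, and the others were not analysed here. Conditioned 4 also stood apart in its mitochondrial share, the 13 mitochondrially encoded genes taking 63.0% of its FPKM against 30.2% to 40.7% in the other libraries. Without conditioned 4 no member rose or fell, where 0.757% of all genes rose, and 12 rows were higher at an unadjusted p under 0.05 with limma, against 9.79% of all genes. In that fit the log2 fold change was 1.496 for C1qa and 0.56 for Cd74.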

How the data were processed

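RNA was measured in 8 libraries, 4 per medium, prepared with a stranded kit and sequenced as pairs on an Illumina NovaSeq. The authors trimmed reads with cutadapt, aligned them to GRCm38 with HISAT2, estimated transcripts with StringTie and made the deposited FPKM with Ballgown. For these tools no version, and for the gene models no release, is given in the sources used here. Every gene of the table averaged 0.5 FPKM or more in control or conditioned medium, and 1 line of it that holds no entry was not used. A gene averaging less than that in control medium was therefore listed only where its mean in conditioned medium was higher, and the reverse. FPKM times transcript length showed no steps of whole reads in the low values (mean cosine at the best step 0.0632 to 0.115, where 1 would mean whole reads), so depth is unknown and the spread between libraries is the measure of precision.

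Genes were tested on log2(FPKM + 1) with limma 3.58.1 (trend) in R 4.3.3, two-sided, adjusted by Benjamini-Hochberg over 11367 genes. Fold changes are on that scale, which understates those of low genes. Ratios of Cd74, Lyz2 and Csf1r were compared by exact permutation of libraries. Members, lists and the rule for named genes (all members, and from each other list the most abundant and up to 3 by smallest p) were chosen with earlier results of these data known. Genes outside that rule were named after their values were seen. These were Dcn, Lyz1, Des, Acta2, overlapping genes and genes named because only conditioned medium brought them over 0.5 FPKM. The script was tested on simulated data. Alternatives were another pseudocount, a filter at 1 FPKM, 3 scalings, 2 other tests, the replicate number as a block, summed transcripts, the ratio of means and each library left out. Motifs were searched in RefSeq promoter windows of GRCm38.p6. Figures were drawn with matplotlib 3.10.9 in Python 3.11.15.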

Additional observations from a re-analysis of the deposited data

Results flagged for a closer look

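In 5 of the 62 sets of 4 libraries examined (31 rows in each medium), 1 library lay so far from the other 3 that its gap to the nearest, divided by the whole range, passed Dixon's 95% critical value for 4 samples. Chance alone passes it in about 1 of 20 sets. Adgre1 was at 1.63 FPKM in conditioned 4 and 2.50 to 2.65 FPKM in the rest of its group. Mrc1 was at 0.767 FPKM in conditioned 4 and 1.27 to 1.33 FPKM in the rest. Cd14 was at 9.31 FPKM in conditioned 4 and 1.04 to 1.31 FPKM in the rest, so this library was low in FPKM for 2 of these genes and high for the third. Mitochondrially encoded genes took 63.0% of the FPKM of conditioned 4, against 30.8% to 35.1% in conditioned 1 to 3. That leaves a smaller part for its other genes. Whether the 2 low values reflect this scale was not tested. Ms4a7 was at 0.250 FPKM in control 2 and 0.962 to 1.10 FPKM in the other controls. The first gene model of Itgam was at 0.924 FPKM in control 1 and 0.173 to 0.220 FPKM in the other controls.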

How the results depend on the processing

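No member fell under any setting, and members rose under 2 settings. With array weights 16 rose, among them Ms4a6c, which met the 0.5 FPKM minimum only through conditioned medium. With 1 library left out 0 to 1 rose, the 1 being Stab1 without control 1. The 63 genes that rose in all became 882 with array weights, 0 with the per-gene F test that has a library-size term (644 higher and 1329 lower unadjusted) and 31 to 110 with 1 library left out. The 0 that fell became 1 with a pseudocount of 0.1, 1 with median-of-ratios size factors, 1 with summed transcripts, 2 with quantile normalization, 51 with array weights and 0 to 2 with 1 library left out.

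With a pseudocount of 0.1 the members' median log2 fold change was 0.96. The resident genes' median was 0.74 with that pseudocount, 0.97 with the filter at 1 FPKM, which keeps 1 of the 3, and 0.75 from ratios of mean FPKM. Ms4a7 changed sign under quantile normalization (-0.0015). With 1 library left out, Ms4a7 ranged from -0.02 to 0.23, Cd14 from -0.04 to 0.74, Spi1 from 0.04 to 0.37, Cd68 from 0.04 to 0.62, the log2 ratio of Cd74 to Lyz2 from -0.61 to 0.060, that of Cd74 to Csf1r from 0.10 to 0.68 and that of Lyz2 to Csf1r from 0.15 to 0.84.

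Leaving out control 2 and conditioned 4 together was chosen after seeing the data. Then 40 genes rose and 2 fell, the log2 fold change was -0.0076 for Spi1, -0.0081 for Cd68, -0.065 for Ms4a7 and -0.30 for Cd14, and the log2 ratio of Cd74 to Csf1r differed by -0.15. Of the same-numbered pairs 1 of 4 had a correlation of deviations over 0.1, so the numbers were not taken as pairs, and whether they mark a shared preparation is not known. With the replicate block 69 genes and 0 members rose, with a lowest adjusted p among members of 0.116 with limma, so no member's call changed. The cause of these shifts was not tested. The depth reached in each library is unknown, so what it limits cannot be given.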
